A study of Mus musculus with 15 samples.

Results

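Cysteine and glutathione synthesis genes are described here in cultured mouse glioma cells, with 8 members chosen by symbol: Slc7a11, Cbs, Cth, Gclc, Gclm, Gss, Gsr and Gpx4. All 8 were found among the 34259 genes of the count table, and all 8 passed the filter on low counts, which left 17497 genes to test. RNA was sequenced from GL261, a mouse glioma cell line of genotype WT, in 5 groups of 3 libraries, all labelled Day 6. In 3 groups, named D-gel@GSNP, L-gel@GSNP and also D-gel@NP, cells labelled Hoechst-CD133+ were mixed into lyophilised chiral hydrogels, held on ice for 20 min and then kept in medium with a cytokine cocktail. In the PBS group the same kind of cells had PBS and the cytokine cocktail, with no ice step named. The non-SP group held untreated cells that did not belong to the side population, which is defined by export of the dye Hoechst. All 5 groups were given new medium on days 2 and 4. The labels do not say what GSNP and NP stand for, and describe the hydrogels of prefix D and L no further than chiral. They also do not say that the 3 libraries of a group came from separate cultures, so p-values measure only the spread between these libraries. Cell label, cytokines and hydrogel changed together between some groups, and every comparison of a hydrogel with PBS includes the ice step.

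Cysteine is the limiting amino acid of glutathione, the main small thiol of the cell. A cell either imports it as the oxidised dimer cystine, through the antiporter xCT, or makes it from homocysteine by transsulfuration. Glutamate-cysteine ligase and glutathione synthetase then join glutamate, cysteine and glycine, glutathione reductase regenerates the oxidised product, and the peroxidase GPX4 spends glutathione to reduce lipid hydroperoxides, which restrains the iron-dependent death called ferroptosis. In many cell types the transcription factor NRF2 raises import and ligase genes by way of antioxidant response elements, and ATF4 raises import and transsulfuration genes under amino acid shortage by way of C/EBP-ATF response elements.

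Promoter sequence was read from RefSeq on build GRCm38.p6 for the 5 members with an entry (Slc7a11, Cbs, Gclm, Gss and Gpx4); Cth, Gclc and Gsr had none. The 250 bases before each start were searched on both strands for the antioxidant response element core TGACNNNGC and the C/EBP-ATF response element core TGATGNAA. The Slc7a11 and Gclm windows held a match, and these are shown because both genes were called in several of the comparisons below. In the Slc7a11 stretch, chr3:50443615-50443763 on the minus strand, capitals mark 2 matches to TGATGNAA, at 66 to 59 bases before the start on the printed strand and at 47 to 40 bases before it on the other. In the Gclm stretch, chr3:122245387-122245486 on the plus strand, capitals mark 1 match to TGACNNNGC, which lies on the other strand 134 to 126 bases before the start.
Slc7a11: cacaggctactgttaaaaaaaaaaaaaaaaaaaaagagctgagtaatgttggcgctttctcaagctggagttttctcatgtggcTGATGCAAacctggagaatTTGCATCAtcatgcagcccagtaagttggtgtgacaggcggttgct
Gclm: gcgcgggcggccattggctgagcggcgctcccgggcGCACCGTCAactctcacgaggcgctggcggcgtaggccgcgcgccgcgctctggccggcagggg
TGACNNNGC occurred in 3338 of 32851 promoter windows of that length (10.2%) and TGATGNAA in 1134 (3.45%). These letters were not found in the windows of Cbs, Gss and Gpx4. No match overlapped another. A match is a description of sequence and says nothing of binding.

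The shallowest library, D-gel@NP 1, had 16.6 M counts and the deepest, L-gel@GSNP 3, had 98.1 M (M, mega). Levels between groups are given in CPM, which sets counts on the library's TMM-scaled total, and levels between genes in the deposited FPKM, which are also per gene length. D-gel@GSNP and non-SP libraries were close throughout: 73 of 17497 genes (0.417%) differed between them by edgeR's quasi-likelihood test at a Benjamini-Hochberg adjusted p under 0.05, the threshold for every gene said here to rise, fall or be called. For D-gel@GSNP, an effect of the hydrogel, a mistaken label and shared material cannot be told apart. Mitochondrially encoded genes took 2.82% to 3.37% of counts in D-gel@GSNP libraries, 4.28% to 4.63% in L-gel@GSNP libraries, 4.47% to 4.84% in D-gel@NP libraries, 5.69% to 6.35% in PBS and 2.82% to 2.92% in non-SP libraries. Of 12 macrophage and microglia markers 11 were in the table, with summed levels of 12 to 13 CPM in D-gel@GSNP, 38.6 to 45.3 CPM in L-gel@GSNP, 33.1 to 40.9 CPM in D-gel@NP, 66.8 to 74.7 CPM in PBS and 11.1 to 11.3 CPM in non-SP; Tyrobp was at 0 in L-gel@GSNP, PBS and non-SP, and Adgre1 at 0 in non-SP. Most of each macrophage and microglia sum was Cd68 and Csf1r, which averaged 42.4 and 24.6 CPM in PBS and 7.51 and 2.79 CPM in D-gel@GSNP. Some of the low markers went the other way, such as Fcer1g at 0.165 CPM in PBS and 0.413 CPM in D-gel@GSNP. Itgam averaged 3.92 CPM in L-gel@GSNP, 2.48 CPM in D-gel@NP and 1.79 CPM in PBS. In L-gel@GSNP against PBS, 1 of 8 tested markers was higher and 3 were lower, where 45.6% of all genes were called. The counts were the same in D-gel@NP against PBS, where 30.4% of all genes were called. The median log2 differences of the 8 markers were 0.03 and -0.03. The summed level of 3 fibroblast and pericyte markers, nearly all of it Dcn, was 641 to 660 CPM in D-gel@GSNP, 1290 to 1450 CPM in L-gel@GSNP, 1420 to 1490 CPM in D-gel@NP, 1240 to 1310 CPM in PBS and 647 to 675 CPM in non-SP. The part of these markers and of the mitochondrial share in the results below was not tested. Of 7 glioma and neural stem markers 6 were in the table, with Olig2 at 0 outside PBS. Their sum was also highest in PBS, at 2230 to 2360 CPM. It was 1840 to 2020 CPM in L-gel@GSNP and 1810 to 1950 CPM in D-gel@NP. In D-gel@GSNP it was 1460 to 1530 CPM and in non-SP 1410 to 1440 CPM. As to the Hoechst-CD133+ label, the CD133 gene Prom1 averaged 0.0571 to 0.158 CPM in the groups that carry it and 0.016 CPM in non-SP, too low to test.

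Per gene length, Gpx4 and Gsr stood far above the genes of import and synthesis, and Cbs was lowest. Gpx4 had 115 to 142 FPKM over the 15 libraries and ranked highest in every group, with Gsr next at 47.6 to 84.9 FPKM. Cbs, the gene of the enzyme that starts transsulfuration, was the lowest of the 8 in every group at 0.033 to 0.186 FPKM. The order between them shifted with the group. Cth, which completes transsulfuration, ranked the fifth in D-gel@NP (12.1 ± 2 FPKM) and the sixth in L-gel@GSNP (7.96 ± 0.929 FPKM). It ranked the seventh in D-gel@GSNP (1.01 ± 0.105 FPKM), PBS (0.92 ± 0.0864 FPKM) and non-SP (0.943 ± 0.0444 FPKM; SD, n = 3 each). Per gene length, Gclm stood above Gclc in D-gel@GSNP and non-SP, and Gclc above Gclm in the other 3 groups. That order rests on the gene lengths used, 6291 bases for Gclm and 3766 bases for Gclc. In CPM, which is not per length, Gclm averaged above Gclc in all 5 groups. The ranks of Gpx4 and Gsr rest on the lengths too, 1724 bases for Gpx4, 2754 for Gsr and 13922 for Slc7a11. In CPM, Gsr averaged above Gpx4 in D-gel@GSNP (238 against 209) and non-SP (225 against 206). Slc7a11 averaged above Gsr in D-gel@NP (154 against 146 CPM) and below it in the other groups.

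**Figure D1:**
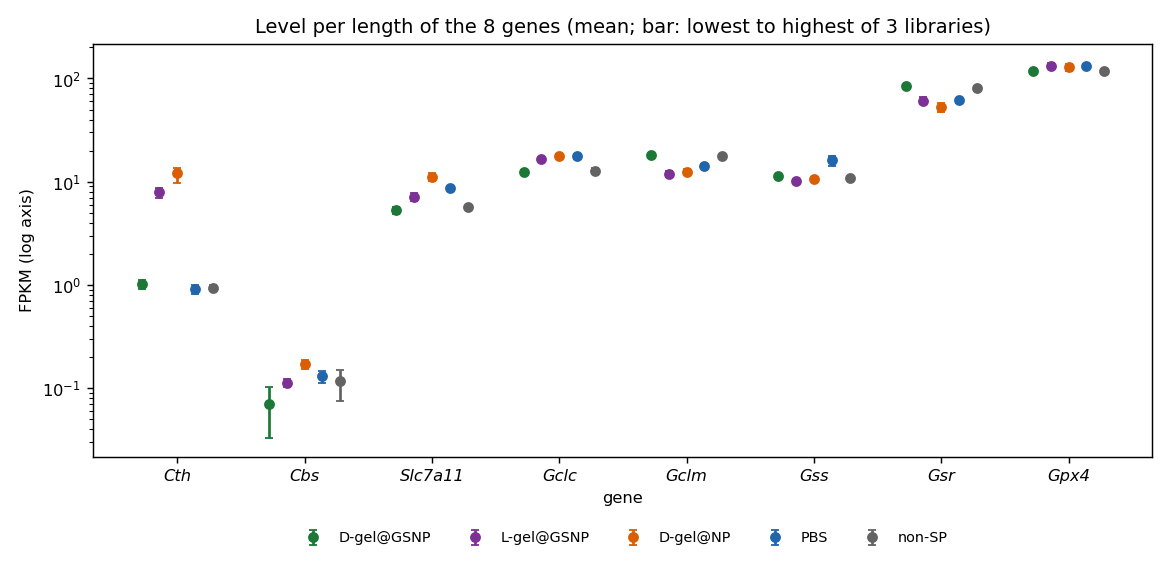
FPKM (log axis) of the 8 genes in each group, with points at the mean and bars over the range of 3 libraries. Gpx4 lay between 115 and 142 FPKM and Cbs between 0.033 and 0.186 FPKM, while Cth lay between 6.91 and 13.6 FPKM in L-gel@GSNP and D-gel@NP and near 1 FPKM elsewhere.

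Slc7a11 encodes xCT, the cystine-importing subunit of the antiporter. Its levels were 71.3, 75.4 and 80.5 CPM in D-gel@GSNP, 106, 97.7 and 88 CPM in L-gel@GSNP, 155, 138 and 168 CPM in D-gel@NP, 121, 121 and 117 CPM in PBS and 80.2, 77.7 and 79.3 CPM in non-SP. The order was D-gel@NP, PBS, L-gel@GSNP and then non-SP with D-gel@GSNP, and only the last 2 groups overlapped. Against PBS, Slc7a11 fell in D-gel@GSNP (log2 difference -0.66 ± 0.069 SE, edgeR adjusted p = 3.53e-08) and in L-gel@GSNP (-0.30 ± 0.069 SE, edgeR adjusted p = 0.00114), and it rose in D-gel@NP (0.37 ± 0.069 SE, edgeR adjusted p = 0.000325). D-gel@GSNP was 1.28-fold below L-gel@GSNP (edgeR adjusted p = 9.64e-05) and 2.03-fold below D-gel@NP (edgeR adjusted p = 2.66e-11). PBS was 1.51-fold above non-SP (edgeR adjusted p = 1.83e-07). In bulk RNA, fewer cells that express a gene and less RNA per cell cannot be told apart, here and for each gene below.

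Cth encodes cystathionine gamma-lyase, which releases cysteine from cystathionine, and as a fold it had the widest range of the 8 genes. It was at 2.86, 2.62 and 3.19 CPM in D-gel@GSNP, 23.9, 19 and 22.6 CPM in L-gel@GSNP, 35.5, 26.8 and 37.9 CPM in D-gel@NP, 2.65, 2.28 and 2.73 CPM in PBS and 2.78, 2.59 and 2.57 CPM in non-SP. Every L-gel@GSNP and D-gel@NP library lay above every library of the other 3 groups, which overlapped each other. Cth rose 8.56-fold in L-gel@GSNP against PBS (log2 3.10 ± 0.137 SE, edgeR adjusted p = 1.67e-13) and 13.1-fold in D-gel@NP against PBS (log2 3.71 ± 0.139 SE, edgeR adjusted p = 1.92e-14). D-gel@GSNP was 7.56-fold below L-gel@GSNP (edgeR adjusted p = 2.83e-14) and 11.6-fold below D-gel@NP (edgeR adjusted p = 2.36e-15). No difference was called between D-gel@GSNP and PBS, where the log2 difference was 0.18 with a 95% interval of -0.14 to 0.50, or between PBS and non-SP, where it was -0.05 with an interval of -0.38 to 0.27. The L-gel@GSNP libraries, at 19 to 23.9 CPM, lay below the D-gel@NP libraries, at 26.8 to 37.9 CPM; that difference was not tested.

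Cbs encodes cystathionine beta-synthase, the enzyme before cystathionine gamma-lyase. Cbs was at 0.582, 0.787 and 0.253 CPM in D-gel@GSNP, 0.764, 0.901 and 0.823 CPM in L-gel@GSNP, 1.13, 1.37 and 1.32 CPM in D-gel@NP, 1.09, 1.02 and 0.835 CPM in PBS and 0.911, 0.563 and 1.14 CPM in non-SP. The lowest value rested on 11 counts in D-gel@GSNP 3 and the highest on 54 counts in D-gel@NP 2. Neighbouring groups overlapped except D-gel@NP, which lay above PBS. Cbs fell 2.35-fold in D-gel@GSNP against D-gel@NP (log2 -1.23 ± 0.346 SE, edgeR adjusted p = 0.00398). The fall in D-gel@GSNP against PBS was close to the threshold (log2 -0.84 ± 0.345 SE, edgeR adjusted p = 0.0427) and was lost without D-gel@GSNP 3 (-0.51, edgeR adjusted p = 0.211), D-gel@GSNP 1 (-0.88, edgeR adjusted p = 0.0703), PBS 1 (-0.76, edgeR adjusted p = 0.11) or PBS 2 (-0.81, edgeR adjusted p = 0.0933). It was also lost without the filter on low counts (edgeR adjusted p = 0.08) and with only the 6 libraries compared (edgeR adjusted p = 0.0641). Against L-gel@GSNP the log2 difference of D-gel@GSNP was -0.60 (interval -1.31 to 0.11), not called, and -0.99 without D-gel@GSNP 2 (edgeR adjusted p = 0.0338).

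**Figure D2:**
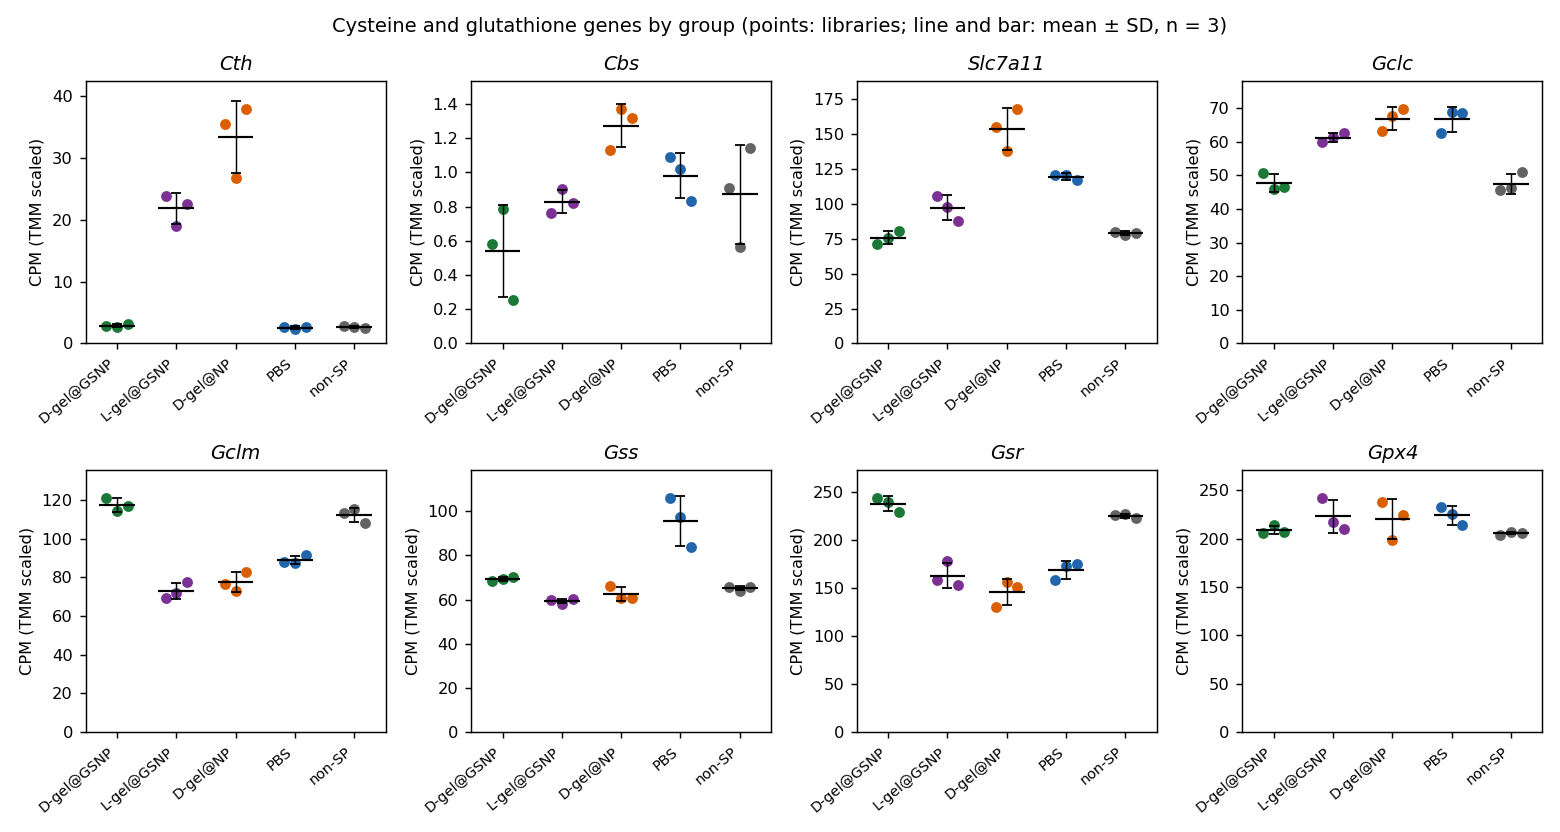
CPM of each of the 8 genes by group, with 1 point per library, the mean as a line and the SD as a bar (n = 3), on linear axes that start at 0. The Cth points of L-gel@GSNP (19 to 23.9 CPM) and D-gel@NP (26.8 to 37.9 CPM) stand clear of the other 3 groups (2.28 to 3.19 CPM), and Gpx4 lies between 198 and 242 CPM throughout.

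The genes of the 2 subunits of glutamate-cysteine ligase, the first and rate-limiting step of glutathione synthesis, moved in opposite directions in some comparisons. These were D-gel@GSNP against PBS, L-gel@GSNP and D-gel@NP, and PBS against non-SP. Gclc, the catalytic subunit gene, was at 50.8, 45.8 and 46.5 CPM in D-gel@GSNP, 59.8, 61.3 and 62.5 CPM in L-gel@GSNP, 63.1, 67.7 and 69.7 CPM in D-gel@NP, 62.5, 68.9 and 68.5 CPM in PBS and 45.5, 46.1 and 51 CPM in non-SP. Gclm, the modifier subunit gene, was at 121, 114 and 117 CPM in D-gel@GSNP, 69.4, 71.6 and 77.5 CPM in L-gel@GSNP, 76.7, 73 and 82.8 CPM in D-gel@NP, 87.7, 87.5 and 91.4 CPM in PBS and 113, 115 and 108 CPM in non-SP. D-gel@GSNP and non-SP overlapped each other for both genes and were apart from the other 3 groups, low for Gclc and high for Gclm. Against PBS, D-gel@GSNP had Gclc 1.40-fold lower (edgeR adjusted p = 6.14e-07) and Gclm 1.32-fold higher (edgeR adjusted p = 1.85e-06). Against L-gel@GSNP, D-gel@GSNP had Gclc 1.28-fold lower (edgeR adjusted p = 2.3e-05) and Gclm 1.61-fold higher (edgeR adjusted p = 3.3e-10). Against D-gel@NP, it had Gclc 1.40-fold lower (edgeR adjusted p = 4.67e-07) and Gclm 1.51-fold higher (edgeR adjusted p = 4.69e-09). PBS had Gclc 1.40-fold higher (edgeR adjusted p = 6.26e-07) and Gclm 1.26-fold lower than non-SP (edgeR adjusted p = 2.5e-05).

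In the remaining comparisons of a hydrogel with PBS, Gclm fell and Gclc was not called. Gclm fell 1.22-fold in L-gel@GSNP against PBS (edgeR adjusted p = 0.000215) and 1.15-fold in D-gel@NP against PBS (log2 -0.20, edgeR adjusted p = 0.0106). Without D-gel@NP 2 the second of these was -0.14 and not called (edgeR adjusted p = 0.091). The log2 difference of Gclc was -0.12 in L-gel@GSNP against PBS (interval -0.25 to 0) and 0.01 in D-gel@NP against PBS (interval -0.12 to 0.14). The FPKM of Gclc over that of Gclm was 0.679 ± 0.018 in D-gel@GSNP libraries, 1.41 ± 0.0493 in L-gel@GSNP libraries, 1.44 ± 0.0945 in D-gel@NP libraries, 1.25 ± 0.0651 in PBS and 0.712 ± 0.0679 in non-SP (SD, n = 3 each). The ratio did not overlap between D-gel@GSNP (0.664 to 0.699) and PBS (1.19 to 1.32), nor between either of the other hydrogel groups and PBS. For each of these the 2-sided exact permutation p was 0.1, the smallest that 3 against 3 libraries allow, so none of the 7 comparisons of the ratio could reach 0.05. D-gel@GSNP and non-SP overlapped (exact permutation p = 0.6). Reads of Gclm could be split with the opposite-strand Gm17494, which shares 296 exon bases in an annotation of an earlier build and had 743 counts against 61692 for Gclm, as the strand setting of the counting is not stated.

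**Figure D3:**
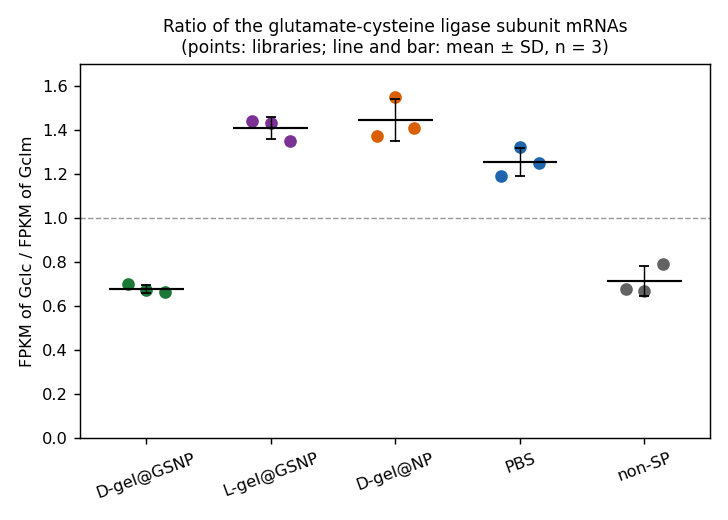
Ratio of Gclc FPKM to Gclm FPKM by group, with 1 point per library, the mean as a line and the SD as a bar (n = 3). The dashed line marks equal FPKM, and its place depends on the gene lengths used. D-gel@GSNP (0.664 to 0.699) and non-SP (0.669 to 0.79) lie below 1, and L-gel@GSNP (1.35 to 1.44), D-gel@NP (1.37 to 1.55) and PBS (1.19 to 1.32) above it.

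Gss encodes glutathione synthetase, which adds glycine to complete the tripeptide, and it stood highest in PBS. Its levels were 68.3, 69.2 and 70.4 CPM in D-gel@GSNP, 59.6, 58.1 and 60.1 CPM in L-gel@GSNP, 65.9, 60.7 and 60.7 CPM in D-gel@NP, 106, 97.4 and 83.6 CPM in PBS and 65.7, 64 and 65.6 CPM in non-SP. The 3 PBS libraries lay above all 12 others. Gss fell against PBS in D-gel@GSNP (log2 -0.46 ± 0.064 SE, edgeR adjusted p = 1.85e-06), in L-gel@GSNP (-0.69 ± 0.064 SE, edgeR adjusted p = 1.26e-08) and in D-gel@NP (-0.62 ± 0.065 SE, edgeR adjusted p = 3.12e-07), and PBS was 1.47-fold above non-SP (edgeR adjusted p = 1.71e-07). The rise of Gss in D-gel@GSNP against L-gel@GSNP was small (log2 0.23, edgeR adjusted p = 0.00423), and upper-quartile scaling, which moved the median of all genes by -0.15 in that comparison, left 0.08 (edgeR adjusted p = 0.297). That call was also lost by limma on log2 FPKM (0.14 or 0.15, limma adjusted p = 0.0617 to 0.121). Against D-gel@NP the rise of Gss was 0.15 (edgeR adjusted p = 0.049), and its call was lost in 12 of 16 alternatives. It was 0.03 under upper-quartile scaling, with a median shift of -0.12. Other losses were under RLE factors (0.14), by DESeq2 (0.14), with a filter of 1 CPM in 3 libraries (0.12) and by limma on log2 FPKM (0.08 or 0.09). The call was also lost without any 1 of D-gel@GSNP 1 (log2 0.17), D-gel@GSNP 2 (0.16), D-gel@GSNP 3 (0.14), D-gel@NP 2 (0.13) or D-gel@NP 3 (0.13). Gss shares 395 exon bases with the opposite-strand gene Acss2 in that earlier annotation (7646 counts against 45891 for Gss), so its counts are uncertain by what the 2 genes exchange.

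Gsr encodes glutathione reductase, which returns the oxidised dimer to glutathione at the expense of NADPH. It was at 244, 240 and 229 CPM in D-gel@GSNP, 158, 178 and 153 CPM in L-gel@GSNP, 130, 156 and 151 CPM in D-gel@NP, 158, 173 and 175 CPM in PBS and 226, 227 and 223 CPM in non-SP. All D-gel@GSNP and non-SP libraries lay above the libraries of the other 3 groups. Gsr rose in D-gel@GSNP against PBS (log2 0.50 ± 0.063 SE, edgeR adjusted p = 6.45e-07), against L-gel@GSNP (0.54 ± 0.063 SE, edgeR adjusted p = 1.17e-07) and against D-gel@NP (0.70 ± 0.064 SE, edgeR adjusted p = 2.89e-09), and PBS was 1.34-fold below non-SP (edgeR adjusted p = 7.2e-06). L-gel@GSNP did not differ detectably from PBS (log2 -0.05, interval -0.18 to 0.08). The fall in D-gel@NP against PBS (log2 -0.21, edgeR adjusted p = 0.0172) was lost without D-gel@NP 1, the shallowest library (-0.12, edgeR adjusted p = 0.164), without PBS 2 (-0.19, edgeR adjusted p = 0.0679) and without PBS 3 (-0.18, edgeR adjusted p = 0.0613). That call was also lost under upper-quartile scaling (-0.17, edgeR adjusted p = 0.0511) and by limma on log2(FPKM + 1) without a filter (-0.21, limma adjusted p = 0.074).

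Gpx4, the glutathione-dependent lipid hydroperoxidase gene, was called by edgeR with TMM factors in none of the 7 comparisons. It was at 206, 214 and 207 CPM in D-gel@GSNP, 242, 217 and 210 CPM in L-gel@GSNP, 238, 198 and 224 CPM in D-gel@NP, 233, 225 and 214 CPM in PBS and 204, 207 and 206 CPM in non-SP. Each group overlapped its neighbour in the order of levels, but PBS (214 to 233 CPM) and L-gel@GSNP (210 to 242 CPM) lay above non-SP (204 to 207 CPM). The largest log2 difference was 0.12 in PBS against non-SP (interval 0 to 0.25, edgeR adjusted p = 0.0859), and all 7 intervals lay within -0.22 and 0.25. Under upper-quartile scaling the log2 difference of Gpx4 was 0.18 in PBS against non-SP (edgeR adjusted p = 0.0184), -0.18 in D-gel@GSNP against PBS (edgeR adjusted p = 0.0173), -0.24 against L-gel@GSNP (edgeR adjusted p = 0.00186) and -0.19 against D-gel@NP (edgeR adjusted p = 0.0102). Limma on log2(FPKM + 1) also called it in D-gel@GSNP against PBS (-0.15, limma adjusted p = 0.0422) and against L-gel@GSNP (-0.16, limma adjusted p = 0.0292), and a fit of only 6 libraries called it in PBS against non-SP (0.13, edgeR adjusted p = 0.0186). Without D-gel@NP 2 the difference of D-gel@GSNP from D-gel@NP was -0.15 (edgeR adjusted p = 0.0335). The processed pseudogene Gpx4-ps2 had counts equal to 15.2% to 17.5% of those of Gpx4 over all libraries. The multi-mapping setting is not stated, so reads may be split between the 2.

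D-gel@GSNP was set against PBS, which had cells with that label and the same cytokine cocktail. The genes of import, the catalytic ligase subunit and the synthetase were lower, and those of the modifier subunit and reductase were higher. Of the 8 genes 2 were higher (Gclm and Gsr) and 4 lower (Slc7a11, Cbs, Gclc and Gss), where 55.0% of all tested genes were called, 27.4% higher and 27.5% lower. The call of Cbs was lost in 9 of 17 alternatives. The median log2 difference of the 8 was -0.28 and that of all genes -0.02. Beside this, macrophage and microglia markers summed to 12 to 13 CPM in D-gel@GSNP and 66.8 to 74.7 CPM in PBS, most of it Cd68 and Csf1r.

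In L-gel@GSNP against PBS the lyase gene rose, and the genes of import, the modifier subunit and the synthetase fell. Of the 8 genes 1 was higher (Cth) and 3 were lower (Slc7a11, Gclm and Gss), where 45.6% of all genes were called, 21.5% higher and 24.1% lower. In D-gel@NP against PBS, Cth and Slc7a11 were higher and Gclm, Gss and Gsr lower, where 30.4% of all genes were called, 14.2% higher and 16.3% lower. The median log2 difference of the 8 was -0.18 in L-gel@GSNP and -0.01 in D-gel@NP, and that of all genes 0 in both. Slc7a11 stood at 88 to 106 CPM in L-gel@GSNP, below PBS, and at 138 to 168 CPM in D-gel@NP, above PBS; L-gel@GSNP and D-gel@NP differ in both the prefix and the load, and no test between them was planned. These comparisons share the PBS libraries, so their values are not independent.

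D-gel@GSNP and L-gel@GSNP carry the same load in hydrogels of opposite prefix. With the D prefix Gclm, Gss and Gsr were higher and Cth, Slc7a11 and Gclc lower, 3 and 3 of 8, where 61.8% of all genes were called, 30.5% higher and 31.3% lower. Upper-quartile scaling gave 2 and 4, where 4180 of all genes were higher and 6778 lower. The difference was not called for Cbs or for Gpx4 (log2 -0.09, interval -0.22 to 0.03). D-gel@GSNP and D-gel@NP carry different loads in the D hydrogel. There Gclm, Gss and Gsr were higher and Cth, Cbs, Slc7a11 and Gclc lower, 3 and 4 of 8, where 58.4% of all genes were called, 28.8% higher and 29.6% lower. RLE scaling gave 2 and 4, where 4942 of all genes were higher and 5266 lower. Upper-quartile scaling gave 2 and 5, where 3961 of all genes were higher and 6303 lower. Gpx4 was not called (log2 -0.07, interval -0.20 to 0.05). Macrophage and microglia markers, mostly Cd68 and Csf1r, summed to 12 to 13 CPM in D-gel@GSNP, beside 38.6 to 45.3 CPM in L-gel@GSNP and 33.1 to 40.9 CPM in D-gel@NP.

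In PBS against non-SP, Slc7a11, Gclc and Gss were higher and Gclm and Gsr lower, 3 and 2 of 8, where 53.7% of all genes were called, 27.6% higher and 26.1% lower. The median log2 difference was 0.15 for the 8 genes and 0.02 for all genes. In D-gel@GSNP against non-SP 0 of the 8 genes were called by edgeR, none had an unadjusted p under 0.05 (the lowest was 0.0659, for Cbs), and DESeq2 also called 0. Of all tested genes 0.417% were called and 9.04% had an unadjusted p under 0.05. The widest interval was that of Cbs (log2 -0.67, interval -1.39 to 0.05), the log2 difference of Cth was 0.13, and those of Slc7a11, Gclc, Gclm, Gss, Gsr and Gpx4 lay between -0.06 and 0.09.

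**Figure D4:**
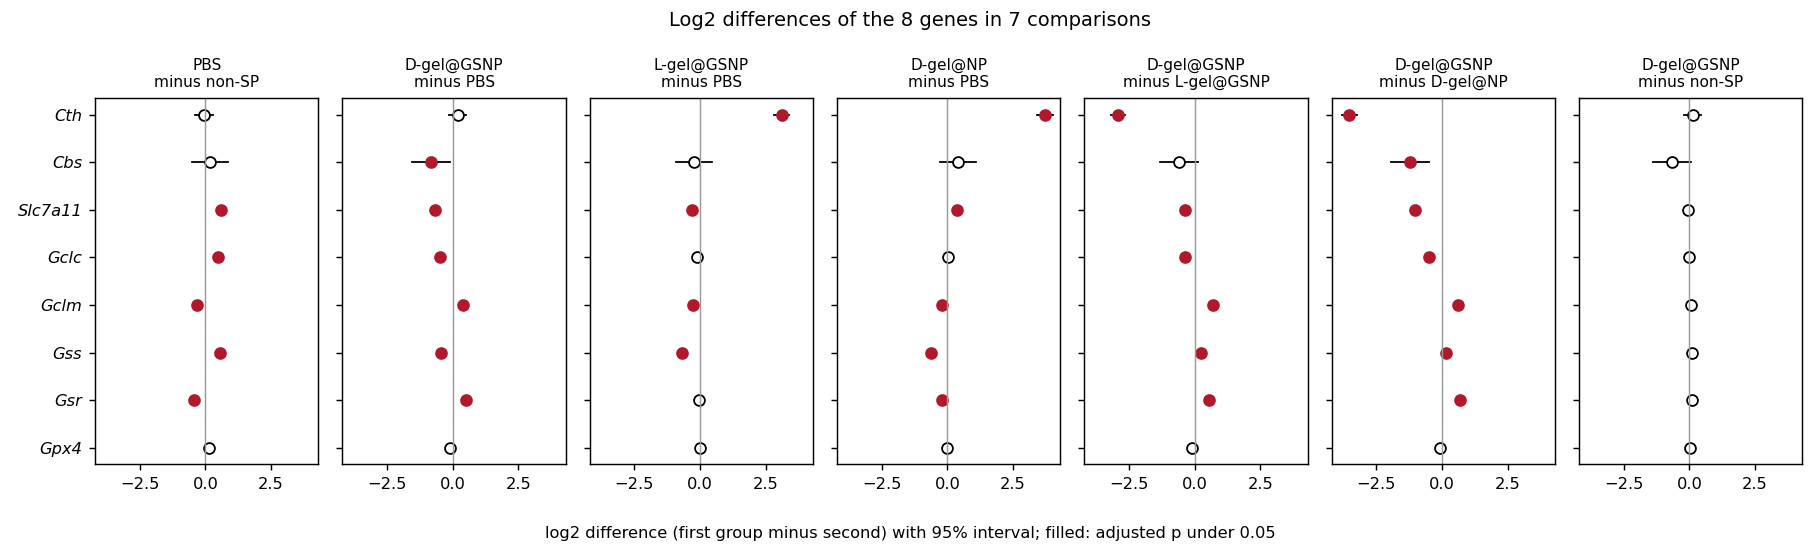
Log2 difference of each of the 8 genes in 7 comparisons, the group named first minus the group named second, with 95% intervals; filled points have an edgeR adjusted p under 0.05. Cth stands at 3.10 in L-gel@GSNP minus PBS and 3.71 in D-gel@NP minus PBS, and no point is filled in D-gel@GSNP minus non-SP.

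The genes whose log2 CPM followed each member most closely over the 15 libraries were looked up among 9732 tested genes (9733 for Cbs) averaging at least 5 CPM, as a description of groups that share their libraries. Nearest to Cth were Psph (Pearson r 0.994), which makes serine, the partner of homocysteine in transsulfuration, Asns (0.991), which makes asparagine, and Eef1b2 (0.983), a translation elongation factor gene. Psph averaged 21.9 CPM in D-gel@GSNP, 53.3 CPM in L-gel@GSNP, 73.8 CPM in D-gel@NP, 21.4 CPM in PBS and 21.7 CPM in non-SP, a narrower range than that of Cth as a fold. Nearest to Slc7a11 was Cr1l (0.973), a complement regulator gene, and to Gclc was Cpt1c (0.975). Gclm followed Uqcrc1 (0.985), Dlat (0.984) and Cs (0.984), mitochondrial genes of the respiratory chain, pyruvate oxidation and the citrate cycle. Gsr followed Dhodh (0.98), a mitochondrial enzyme gene of pyrimidine synthesis, and Gss followed Slc35b1 (0.97). The nearest genes of Cbs (Klhl8, 0.797) and Gpx4 (Cbr4, 0.875) were less alike. Among the members themselves the closest pair was Gclm with Gsr (0.90), and Slc7a11 ran against Gsr (-0.87).

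The first wider list held other genes of sulfur amino acid metabolism. Of 18 tested, 5 were higher and 6 lower in D-gel@GSNP against PBS, 3 and 9 in L-gel@GSNP against PBS, 3 and 4 in D-gel@NP against PBS and 7 and 5 in PBS against non-SP. Their median log2 differences were -0.05, -0.25, -0.01 and 0.12, beside -0.02, 0, 0 and 0.02 for all genes in the same 4 comparisons, which are also the background of each list below. In these 4 comparisons 27.4%, 21.5%, 14.2% and 27.6% of all genes were called higher and 27.5%, 24.1%, 16.3% and 26.1% lower, the shares beside which the count of each list is to be read; no list was tested as a group. Ahcy, which makes the homocysteine that feeds transsulfuration, averaged 244 CPM in D-gel@GSNP, 101 CPM in L-gel@GSNP, 116 CPM in D-gel@NP, 139 CPM in PBS and 242 CPM in non-SP. It rose 1.75-fold in D-gel@GSNP against PBS (edgeR adjusted p = 8.1e-12), where Cth was not called. In L-gel@GSNP against PBS, where Cth rose, Ahcy fell 1.37-fold (edgeR adjusted p = 1.73e-07). Suox, the sulfite oxidase gene at the end of cysteine breakdown, averaged 140 CPM in D-gel@GSNP, 154 CPM in L-gel@GSNP, 180 CPM in D-gel@NP, 338 CPM in PBS and 137 CPM in non-SP. It fell 2.42-fold, 2.20-fold and 1.88-fold in those hydrogel groups against PBS, and PBS was 2.47-fold above non-SP (edgeR adjusted p = 3.93e-13). Sqor, which oxidises hydrogen sulfide, also fell against PBS, 2.52-fold in D-gel@GSNP, 2.00-fold in L-gel@GSNP and 1.79-fold in D-gel@NP. For Sqor too PBS was above non-SP, 2.62-fold (edgeR adjusted p = 6.74e-11).

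The next list held genes of glutathione breakdown and export. Of 8 tested, 2 were higher and 5 lower in D-gel@GSNP against PBS, 3 and 5 in L-gel@GSNP against PBS, 1 and 5 in D-gel@NP against PBS and 5 and 2 in PBS against non-SP, with medians of -0.55, -0.45, -0.24 and 0.47. Of all genes 55.0%, 45.6%, 30.4% and 53.7% were called there. Chac1, which splits glutathione in the cytosol, averaged 0.592 CPM in D-gel@GSNP, 12.2 CPM in L-gel@GSNP, 18.1 CPM in D-gel@NP, 2.34 CPM in PBS and 0.595 CPM in non-SP. It rose 7.71-fold in D-gel@NP against PBS (edgeR adjusted p = 1.36e-08), and D-gel@GSNP was 20.4-fold below L-gel@GSNP (edgeR adjusted p = 1.53e-11) and 29.9-fold below D-gel@NP (edgeR adjusted p = 3.19e-12). Its paralog Chac2 was lower than in PBS in all 3 hydrogel groups, 1.80-fold in D-gel@GSNP, 2.71-fold in L-gel@GSNP and 1.49-fold in D-gel@NP. PBS was also 1.68-fold above non-SP for Chac2 (edgeR adjusted p = 1.73e-06).

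Of 18 other glutathione peroxidase and transferase genes tested, 2 were higher and 13 lower in D-gel@GSNP against PBS (median log2 -0.57), 6 and 7 in L-gel@GSNP against PBS (-0.27), 3 and 6 in D-gel@NP against PBS (-0.31) and 11 and 2 in PBS against non-SP (0.57). The shares of all genes called lower were 27.5%, 24.1%, 16.3% and 26.1%, and higher 27.4%, 21.5%, 14.2% and 27.6%. Mgst1, a microsomal transferase gene, averaged 35.8 CPM in D-gel@GSNP, 133 CPM in L-gel@GSNP, 104 CPM in D-gel@NP, 82 CPM in PBS and 34.8 CPM in non-SP. D-gel@GSNP was 3.71-fold below L-gel@GSNP (edgeR adjusted p = 5.77e-15). Gstt1, a theta class transferase gene, was 6.64-fold lower in D-gel@GSNP than in L-gel@GSNP (edgeR adjusted p = 4.51e-13) and 3.36-fold lower than in PBS (edgeR adjusted p = 1.44e-09). It averaged 2.77 CPM in D-gel@GSNP and 2.83 CPM in non-SP. Mgst3 ran the other way, at 60.8 CPM in D-gel@GSNP and 27.5 CPM in L-gel@GSNP, 2.21-fold higher (edgeR adjusted p = 1.85e-11). PBS, at 63.5 CPM, and non-SP, at 61.1 CPM, had levels near that of D-gel@GSNP. Mgst3 fell 2.31-fold in L-gel@GSNP (edgeR adjusted p = 5.19e-11) and 1.90-fold in D-gel@NP (edgeR adjusted p = 1.35e-08) against PBS.

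In the parallel glutaredoxin and thioredoxin system, 7 of 19 tested genes were higher and 7 lower in D-gel@GSNP against PBS, 6 and 9 in L-gel@GSNP against PBS, 2 and 5 in D-gel@NP against PBS and 8 and 7 in PBS against non-SP. The medians were -0.09, -0.14, -0.10 and 0.09, and 55.0%, 45.6%, 30.4% and 53.7% of all genes were called. Txnip, which binds and inhibits thioredoxin, averaged 155 CPM in D-gel@GSNP, 1130 CPM in L-gel@GSNP, 551 CPM in D-gel@NP, 167 CPM in PBS and 131 CPM in non-SP. It rose 6.76-fold in L-gel@GSNP against PBS (edgeR adjusted p = 7.11e-17) and 3.29-fold in D-gel@NP against PBS (edgeR adjusted p = 4.13e-13). Txnrd1, the cytosolic thioredoxin reductase gene, rose 1.51-fold in D-gel@GSNP against PBS (edgeR adjusted p = 2.77e-08), the same direction as Gsr. It averaged 312 CPM in D-gel@GSNP, 207 CPM in PBS and 297 CPM in non-SP.

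Among 15 tested genes of ferroptosis defence and lipid peroxidation, 4 were higher and 8 lower in D-gel@GSNP against PBS, 3 and 7 in L-gel@GSNP against PBS, 1 and 7 in D-gel@NP against PBS and 8 and 3 in PBS against non-SP, with medians of -0.28, -0.09, -0.14 and 0.28, where 55.0%, 45.6%, 30.4% and 53.7% of all genes were called. Acsl4, which loads membranes with oxidisable fatty acids, averaged 79.9 CPM in D-gel@GSNP, 173 CPM in L-gel@GSNP and 163 CPM in D-gel@NP. It was 2.16-fold lower (edgeR adjusted p = 1.63e-14) and 2.04-fold lower (edgeR adjusted p = 7.9e-14) in these comparisons. PBS had 136 CPM of Acsl4 and non-SP 90 CPM. Fth1, the iron-storing ferritin heavy chain gene, was 1.79-fold higher in D-gel@GSNP than in L-gel@GSNP (edgeR adjusted p = 1.16e-13). Its levels averaged 1380 CPM in D-gel@GSNP, 771 CPM in L-gel@GSNP, 862 CPM in D-gel@NP, 1160 CPM in PBS and 1290 CPM in non-SP. Of 8 selenoprotein synthesis genes, on which the selenoprotein GPX4 depends, 5 were higher and 2 lower in D-gel@GSNP against PBS (median 0.29), 2 and 4 in L-gel@GSNP against PBS (-0.16), 0 and 3 in D-gel@NP against PBS (-0.14) and 2 and 4 in PBS against non-SP (-0.17), beside the same shares of all genes. Lrp8, a receptor for the selenium carrier, averaged 45.2 CPM in D-gel@GSNP, 15.2 CPM in L-gel@GSNP and 20.8 CPM in D-gel@NP, 2.96-fold higher (edgeR adjusted p = 3.14e-12) and 2.16-fold higher (edgeR adjusted p = 1.34e-09) in D-gel@GSNP. PBS had 37.7 CPM of Lrp8 and non-SP 41.7 CPM. It fell 2.47-fold in L-gel@GSNP (edgeR adjusted p = 3.53e-10) and 1.80-fold in D-gel@NP (edgeR adjusted p = 8.87e-07) against PBS.

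Of 13 regulator genes, 2 were higher and 9 lower in D-gel@GSNP against PBS (median -0.30), 7 and 3 in L-gel@GSNP against PBS (0.18), 8 and 2 in D-gel@NP against PBS (0.23) and 9 and 2 in PBS against non-SP (0.41). Of all genes 55.0%, 45.6%, 30.4% and 53.7% were called in these comparisons. Atf4 averaged 156 CPM in D-gel@GSNP, 282 CPM in L-gel@GSNP, 339 CPM in D-gel@NP, 181 CPM in PBS and 136 CPM in non-SP. It rose 1.56-fold in L-gel@GSNP (edgeR adjusted p = 2.19e-09) and 1.87-fold in D-gel@NP (edgeR adjusted p = 3.74e-11) against PBS. Trib3, a pseudokinase gene known as an ATF4 target, averaged 3.28 CPM in D-gel@GSNP, 63.2 CPM in L-gel@GSNP, 74 CPM in D-gel@NP, 8.33 CPM in PBS and 4.13 CPM in non-SP. Against PBS it rose 7.57-fold in L-gel@GSNP (edgeR adjusted p = 4.24e-12) and 8.82-fold in D-gel@NP (edgeR adjusted p = 4.32e-12). Other regulators had another order. PBS was above non-SP for Atf3 (4.22-fold, edgeR adjusted p = 3.77e-13) and Ddit3 (2.73-fold, edgeR adjusted p = 3.25e-11), where Cth was not called. Ddit3 averaged 25.3 CPM in L-gel@GSNP, 35.5 CPM in D-gel@NP and 31.3 CPM in PBS. Nfe2l2, which encodes NRF2, averaged 178 CPM in D-gel@GSNP, 315 CPM in L-gel@GSNP, 280 CPM in D-gel@NP, 291 CPM in PBS and 171 CPM in non-SP. It was 1.64-fold lower in D-gel@GSNP than in PBS (edgeR adjusted p = 3.22e-11). PBS was 1.7-fold above non-SP for Nfe2l2 (edgeR adjusted p = 1.12e-11).

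Against L-gel@GSNP, where 61.8% of all genes were called (30.5% higher and 31.3% lower), D-gel@GSNP had 7 of 18 genes of sulfur amino acid metabolism higher and 5 lower, 4 and 4 of 8 of breakdown and export, 4 and 12 of 18 peroxidases and transferases, 9 and 5 of 19 of glutaredoxin and thioredoxin, 6 and 6 of 15 of ferroptosis defence, 5 and 1 of 8 of selenoprotein synthesis and 3 and 9 of 13 regulators. Against D-gel@NP, where 58.4% of all genes were called (28.8% higher and 29.6% lower), it had, of the same numbers tested, 4 genes of sulfur amino acid metabolism higher and 8 lower, 3 and 4 of breakdown and export, 5 and 9 of peroxidases and transferases, 9 and 6 of glutaredoxin and thioredoxin, 5 and 6 of ferroptosis defence, 5 and 1 of selenoprotein synthesis and 3 and 9 of the regulators. Against non-SP, edgeR called 0 genes of any of these lists, while other settings called 1 or 2 in some of them.

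**Figure D5:**
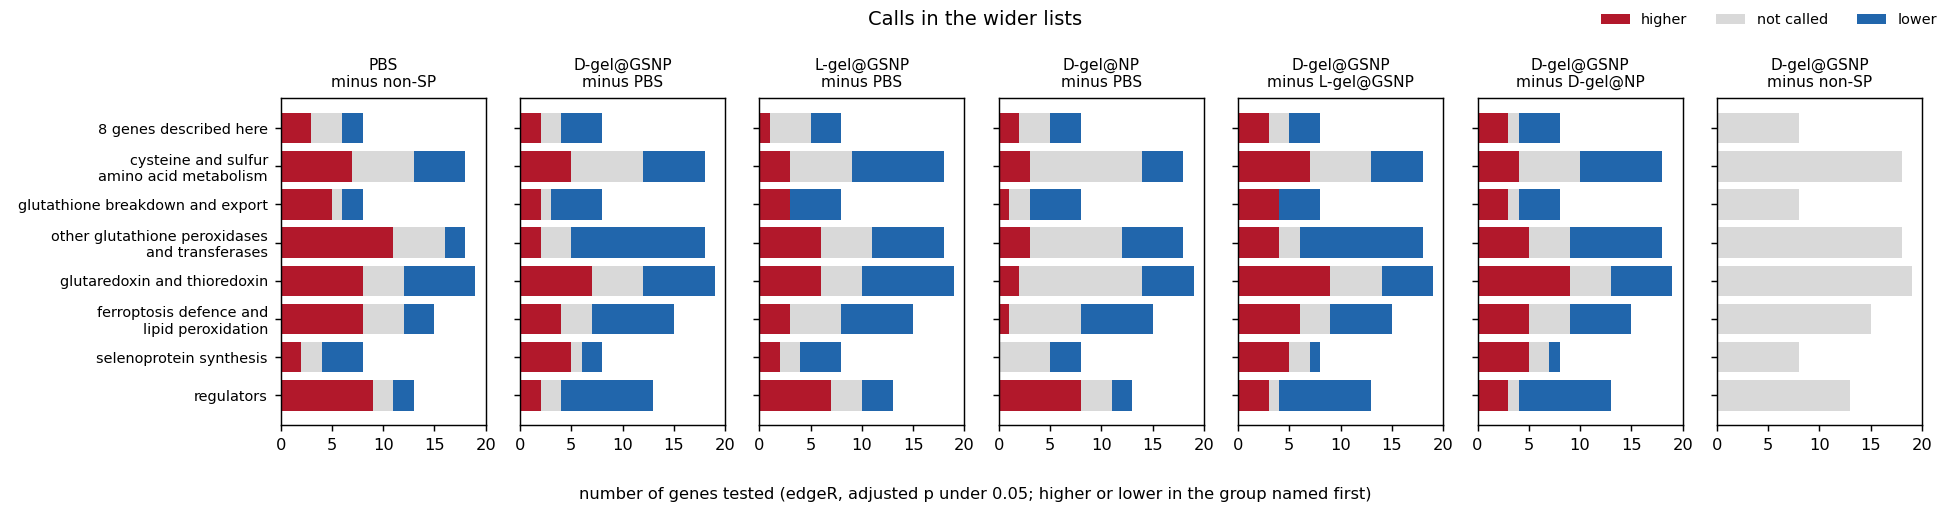
Number of tested genes called higher (red), not called (grey) and called lower (blue) in the group named first, for the 8 genes and 7 wider lists in 7 comparisons (edgeR, adjusted p under 0.05). Of 18 other glutathione peroxidase and transferase genes 13 are lower in D-gel@GSNP minus PBS, where 27.5% of all genes are lower. In PBS minus non-SP 11 of them are higher, where 27.6% of all genes are higher. Both comparisons use the PBS libraries, so the counts are not independent. D-gel@GSNP minus non-SP shows no call in these lists, where 0.417% of all genes are called.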

How the data were processed

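RNA sequencing counts of 15 libraries were used in 5 groups of 3, grouped by their labels. Read counts for each gene, in whole numbers, were deposited; per the submitters' processing notes fastp 0.22.0, HISAT2 2.1.0, featureCounts and DESeq2 were used with GRCm39, and annotation, strand and multi-mapping settings are not given in the sources used here. The deposited FPKM values were made by the authors and equalled count over gene length and library total within a relative 1e-04 for all 34259 genes. Of counts from 1 to 20, 62.3% to 66.4% per library were even, so counts may not be single molecules.

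Gene symbols were matched by identifier to GENCODE, on an earlier build (32434 of 34259). With edgeR 4.0.16 (R 4.3.3), filterByExpr by group was applied, TMM factors were used and all libraries entered a quasi-likelihood fit (glmQLFit, glmQLFTest); Benjamini-Hochberg adjustment ran over 17497 genes in each of 7 comparisons, with calls at adjusted p under 0.05. The biological coefficient of variation was 8.06%. The steps were tested on simulated data. Alternatives were RLE and upper-quartile factors, other filters (none, or 1 CPM in 3 libraries), DESeq2 1.42.0, a replicate block, fits of only the 6 libraries concerned, each library left out in turn, and limma 3.58.1 on log2 of the deposited FPKM plus 1 or 0.1.

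Members and lists were chosen with earlier results of these data known. From each wider list and comparison, up to 3 called genes with the lowest adjusted p, no overlap and at least 5 CPM in the higher group could be named, and for each member the 3 genes of highest Pearson r; the text gives a part. Promoters are from RefSeq (GRCm38.p6). All libraries carry 1 batch label. Sequence reads were not analysed here.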

Additional observations from a re-analysis of the deposited data

How the results depend on the processing

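The number of the 8 genes called stayed within 1.5 times its value under all alternatives run: 5 to 6 in PBS against non-SP, 5 to 7 in D-gel@GSNP against PBS, 4 in L-gel@GSNP against PBS, 4 to 5 in D-gel@NP against PBS, 5 to 7 in D-gel@GSNP against L-gel@GSNP, 6 to 7 in D-gel@GSNP against D-gel@NP and 0 in D-gel@GSNP against non-SP. Of 936 values of single members under an alternative, 859 kept direction and side of the threshold, 31 lost a call, 11 gained one and 35 changed sign; none of the sign changes was in a called difference. These log2 values were 0.01 to 0.06 for Gpx4 and 0.02 for Gsr in L-gel@GSNP against PBS, 0.01 for Gpx4 in D-gel@NP against PBS and, in D-gel@GSNP against non-SP, -0.01, -0.02, -0.03 or 0 for Gclc and -0.01 or 0 for Gpx4. With each library left out in turn, Cth ran from -0.11 to 0.02 and Cbs from -0.06 to 0.41 in PBS against non-SP, Gsr from -0.10 to 0.01 and Gpx4 from -0.06 to 0.04 in L-gel@GSNP against PBS, Gclc from -0.03 to 0.06 and Gpx4 from -0.07 to 0.05 in D-gel@NP against PBS, and Gclc from -0.04 to 0.06 in D-gel@GSNP against non-SP. For Gpx4 in L-gel@GSNP against PBS the values were 0.06 under upper-quartile factors, 0.02 with either other filter and 0.01 on the FPKM scales. The replicate numbers did not pair the libraries (correlations of same-numbered deviations -0.022 to 0.045, and 6 of 15 libraries closest to their own number); with a replicate block Cbs in D-gel@GSNP against PBS was -0.86 (edgeR adjusted p = 0.0509), and 34 genes in place of 73 were called between D-gel@GSNP and non-SP. That count was also 195 by DESeq2, 239 without a filter, 282 with only the 6 libraries, 11 to 36 by limma and 6 to 140 with a library left out. With upper-quartile factors 4560 genes were higher and 3421 lower in place of 3761 and 4218 in L-gel@GSNP against PBS, 2974 and 2221 in place of 2479 and 2848 in D-gel@NP against PBS, 4180 and 6778 in place of 5339 and 5475 in D-gel@GSNP against L-gel@GSNP, 3961 and 6303 in place of 5031 and 5183 in D-gel@GSNP against D-gel@NP, 4066 and 5561 in place of 4802 and 4819 in D-gel@GSNP against PBS, and 5343 and 4016 in place of 4824 and 4564 in PBS against non-SP. The Cth differences kept their call in every alternative run, with log2 values of 2.22 to 3.20 in L-gel@GSNP and 2.76 to 3.86 in D-gel@NP against PBS. The causes were not tested. Depth limits Cbs, which had 11 to 83 counts per library.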
